A study of Mus musculus with 8 samples.

Results

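Tox and Tox2 are genes for related nuclear proteins of the HMG-box family, and the regions of open chromatin in and around both were followed here. Regions were chosen by position: every line of the deposited ATAC-seq peak lists whose summit lay inside either gene or within 100 kb of it was taken, and overlapping lines were joined. This gave 293 of 487793 lines and 41 of 60835 regions, 14 at Tox and 27 at Tox2. Both genes were picked with their calls and fold values in the 4 lists already known, so these values are given as a description, with no test.

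TOX proteins bind DNA through an HMG box, a fold that recognises the shape of DNA more than a strict sequence. TOX is known for its roles in the thymic development of CD4 T cells, in the early precursors of innate lymphoid cells and in exhausted CD8 T cells. TOX2 is known from NK cell development and follicular helper T cells, and acts beside TOX in exhausted T cells. E47 is an E protein, a product of Tcf3 that binds the E-box motif CANNTG, and Id proteins such as Id1 block E proteins by binding them.

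The cells were group 2 innate lymphoid cells (ILC2s), tissue lymphocytes that make type 2 cytokines, from the thymus of plck-Id1 mice of the C57BL/6 strain. In these mice the proximal Lck promoter, which is active in developing T cells, drives Id1, and all 4 groups carry this transgene. The cells had been cultured with cytokines, transduced with a retrovirus that carries GFP, either by itself or together with E47-ER, sorted for GFP, expanded, and given 4-hydroxytamoxifen, the ligand that activates the ER fusion, in all 4 groups. The groups are E47-ER at 4 h, E47-ER at 16 h, GFP at 4 h and GFP at 16 h, each with 2 samples and represented by 1 peak list made from both, so no spread between replicates can be given. In every group the free-text descriptions give replicate 1 an empty vector and replicate 2 one with E47-ER, against the titles and transduction labels used here. If the descriptions held, each list would mix both vectors. The library source is labelled transcriptomic and the molecule total RNA, against the ATAC-seq protocol.

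The 4 lists held between 40649 and 52846 regions, and E47-ER at 16 h was the shortest. Read depth is not known, nor is it stated if paired samples derive from different animals or cultures. Absence from a list means only that no peak was called, and such chromatin can be open below the calling limit. Fold is the authors' enrichment over local background, the highest of a region's lines, and belongs to its own list. The percentile of a region is its place in its own list by −log10 p. A region within 1 kb of a gene end was found in each list for 6 of 9 ILC2 marker genes, though not the same ones. It was found for 3 or 4 of 9 T cell genes, for 2 of 5 myeloid genes (Spi1 and Cebpa) and for at most 1 of 5 B cell genes. Of the ILC2 genes, Il17rb, Il13, Il5, Areg and Klrg1 had one in all 4 lists. Il1rl1 had one in all but GFP at 4 h, and Icos in GFP at 4 h alone. The ILC2 markers Gata3 and Rora had no region at a gene end in any list, though 9 and 29 regions lay inside these genes. Among T cell genes, Cd3d and Cd4 had such a region in all 4 lists, and Cd3g, Cd8a, Cd8b1, Ptcra and Rag1 in none. Cd3e had one in all but GFP at 4 h, and Rag2 in all but E47-ER at 16 h.

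The Tox2 start windows are shown first because some Tox2 start sites lay in called regions and others did not. The RefSeq table of promoters (GRCm38.p6, the same assembly as mm10) held 5 start sites for Tox2, all on the plus strand, and no entry for Tox. The 250 bases before a start are printed 5′ to 3′, with E-box letters CANNTG in capitals, a pattern that reads the same on both strands. The window of start 1 is printed up to the base before the annotated gene body, which begins 69 bp before start 1.
Tox2 start 1, chr2:163202877-163203057, plus strand: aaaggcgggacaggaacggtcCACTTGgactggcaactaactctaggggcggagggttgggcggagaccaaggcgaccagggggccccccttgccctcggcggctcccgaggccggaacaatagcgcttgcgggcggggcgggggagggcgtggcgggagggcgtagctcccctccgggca
Tox2 start 3, chr2:163203936-163204185, plus strand: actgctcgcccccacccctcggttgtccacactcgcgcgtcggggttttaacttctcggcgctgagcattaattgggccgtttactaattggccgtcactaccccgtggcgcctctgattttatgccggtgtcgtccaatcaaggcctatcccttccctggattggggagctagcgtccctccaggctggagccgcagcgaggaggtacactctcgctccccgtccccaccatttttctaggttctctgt
Tox2 start 4, chr2:163225203-163225452, plus strand: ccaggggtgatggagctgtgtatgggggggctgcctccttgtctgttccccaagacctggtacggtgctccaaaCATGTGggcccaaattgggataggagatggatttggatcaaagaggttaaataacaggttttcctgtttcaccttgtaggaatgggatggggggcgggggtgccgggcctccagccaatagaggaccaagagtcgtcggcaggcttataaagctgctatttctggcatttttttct

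Starts 1, 2 and 3 lay under 1 region that every list called, whereas starts 4 and 5, which are 1 base apart, had no region over them in any list. The nearest called region was 3441 bp past start 4. The window before start 1 held 1 E-box, CACTTG, at 229 bases before the start, and the window before start 4 held CATGTG at 176 bases. The window of start 3 held none. Start 2 had CACCTG, the reverse strand of the E-box CAGGTG, at 47 bases before it. Of 32851 start windows of the same length in the table, 66.2% held CANNTG, 17.2% held CAGGTG and 13.0% held CAGCTG. Letters of this kind are common, and a match says nothing on binding.

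Tox (chromosome 4, 6686353 to 6991557, mm10) spans 305 kb and is known to be transcribed from its higher-coordinate end, so positions are given as distances from that end. Of its 14 regions, 13 lay inside the gene and 1 lay 4210 bp past the far end. No other coding gene lies within 100 kb, and the nearest coding gene of every region was Tox. The annotation used gives no exons, so regions inside a gene are not divided into exons and introns.

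Tox had fewer called regions with E47-ER than with GFP at both times. E47-ER at 4 h held 6 of the 14 regions, E47-ER at 16 h held 4, GFP at 4 h held 9 and GFP at 16 h held 12. Over all 60835 regions, the lists called 77.7%, 62.9%, 66.5% and 81.8% in the same order, and Tox stood at 42.9% and 28.6% in E47-ER and 64.3% and 85.7% in GFP. The shares in GFP were near those of all regions, and those in E47-ER were below them. The exact (Clopper-Pearson) 95% intervals cover counting error only and treat regions as independent. They were 17.7 to 71.1% and 8.39 to 58.1% in E47-ER and 35.1 to 87.2% and 57.2 to 98.2% in GFP. Because Tox was picked with these calls known, the intervals cannot test a difference from all regions.

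Single summit lines gave the same order with a wider gap. Of 81 lines at Tox, 16 came from E47-ER at 4 h, 4 from E47-ER at 16 h, 25 from GFP at 4 h and 36 from GFP at 16 h. E47-ER at 4 h and 16 h thus held 19.8% and 4.94% of the lines at Tox, against 27.0% and 22.5% of all lines in the 4 lists. GFP at 4 h and 16 h held 30.9% and 44.4%, against 23.0% and 27.6%. The length covered by called regions was 3102 bp and 1353 bp in E47-ER at 4 h and 16 h, and 4737 bp and 6265 bp in GFP. The mean fold of the called regions was 9.56, 10.6, 9.11 and 9.83 in the same order, and the median fold was 7.63, 9.05, 8.38 and 10.8. These are over different regions in each list.

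**Figure D1:**
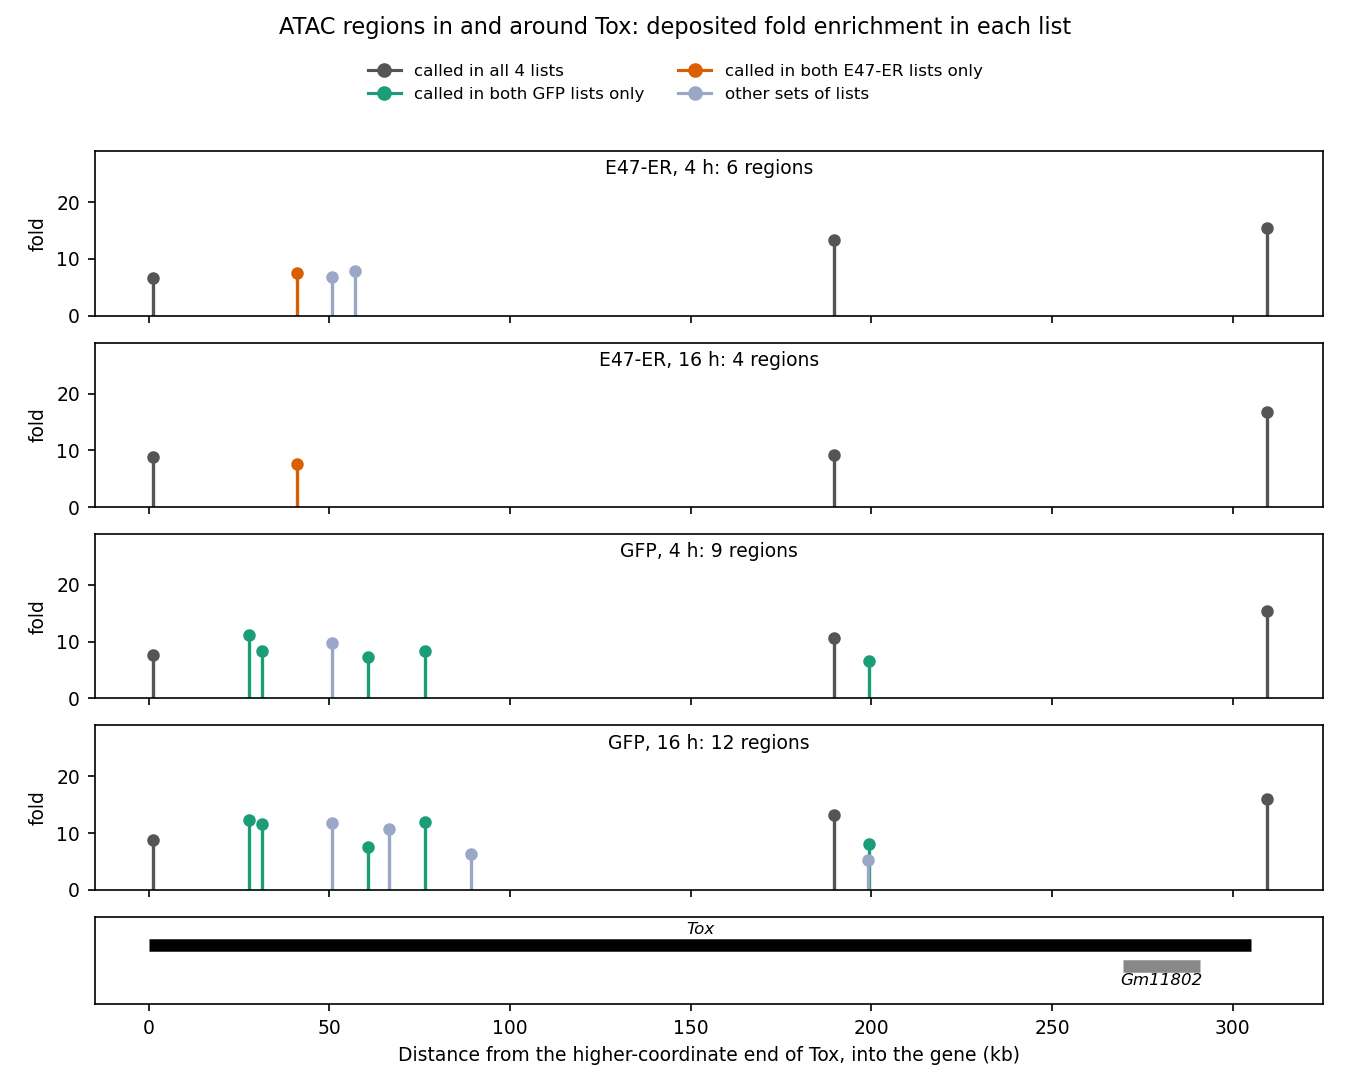
Regions in and around Tox in each list. The x axis is the distance in kb from the higher-coordinate end of the gene, the y axis is the deposited fold enrichment, each stem is 1 region, colours give the set of lists that called it, and bars in the lowest panel are annotated genes. Between 25 and 100 kb, E47-ER at 16 h has 1 region and GFP at 16 h has 7.

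Of the 14 Tox regions, 5 appeared in each GFP list but not with E47-ER at either time, here termed GFP-only (35.7%, against 4.56% of all regions and 5.46% of regions inside coding genes and over 1 kb from their ends). The reverse set, both E47-ER lists and neither GFP list, here termed E47-only, held 1 (7.14%, against 3.43% and 4.05%). Regions called in all 4 lists numbered 3 (21.4%, against 48.8% and 40.8%). The other 5 were 3 called in GFP at 16 h alone (background 10.6%), 1 in E47-ER at 4 h alone (background 7.21%) and 1 in every list but E47-ER at 16 h (background 6.67%).

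The strongest of the GFP regions lay 27.8 kb into the gene (chromosome 4, 6963512 to 6963956). Its fold was 11.3 in GFP at 4 h and 12.2 in GFP at 16 h, at percentiles 55.9 and 63.2. It was 1 of 51 regions, among 2776 called in both GFP lists only, that lay above the median of both lists, and ranked 31 by mean percentile. The nearest E47-ER line lay 13212 bp away at 4 h and 13260 bp away at 16 h.

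Its neighbour at 31.5 kb (6959906 to 6960413) had a fold of 8.33 in GFP at 4 h and 11.7 at 16 h, and ranked 136 of 2776. A region at 76.5 kb (6914933 to 6915274) had folds of 8.43 and 11.9. The other 2 GFP-only regions were weaker. The one at 60.8 kb (6930647 to 6930917) had folds of 7.31 and 7.48, and the one at 199.3 kb (6792047 to 6792383) had 6.56 and 8.16. Their mean percentiles of 19.6 and 18.0 were below the median of 23.5 for all regions of this kind. Each of the 5 had a higher fold in the 16 h list than in the 4 h list of GFP cells, a step that also holds for the median region called in all lists (0.11 on the log2 scale).

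The single Tox region called in both E47-ER lists and not in GFP lay 41.0 kb into the gene (6950354 to 6950628), between GFP regions at 31.5 kb and 60.8 kb. Its folds were 7.44 at 4 h and 7.56 at 16 h, at percentiles 21.0 and 19.5, and the nearest GFP line was 9251 bp away at 4 h and 9234 bp away at 16 h. It ranked 1137 of 2088 regions of its kind, just below the middle.

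Regions along Tox were not spread evenly. The stretch from 25 to 100 kb into the gene held 9 of the 14 regions, and none of these 9 was in all 4 lists. E47-ER at 4 h called 3 of them, E47-ER at 16 h 1, GFP at 4 h 5 and GFP at 16 h 7. The stretch from 100 to 200 kb held 3 regions, and from 200 kb to the far end of the gene no list called any. No region lay in the 100 kb before the start either: the next region on that side lay 181193 bp away and was in all 4 lists. Past the far end, the next region beyond the one at 4210 bp lay at 124551 bp and was called in GFP at 16 h alone, with a fold of 5.56.

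The start end of Tox itself was called in every list. The region at 1.3 kb (6989294 to 6991141, 1848 bp wide) had folds of 6.63 and 8.92 in E47-ER at 4 h and 16 h and 7.70 and 8.74 in GFP. Its percentiles were 29.2, 45.8, 44.4 and 53.6 in the same order. The region at 189.7 kb (6801489 to 6801978) had folds of 13.3 and 9.18 in E47-ER and 10.7 and 13.2 in GFP, so E47-ER was the higher at 4 h and GFP at 16 h. The region past the far end (6681632 to 6682502) had nearly the same fold in all lists, 15.4 and 16.7 in E47-ER and 15.4 and 16.1 in GFP.

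Over time, the E47-ER lists lost regions at Tox and the GFP lists gained them. Regions called with E47-ER at 4 h and not at 16 h numbered 2, at 50.7 kb (6940486 to 6941321) and 57.2 kb (6934133 to 6934735), and none was new at 16 h. The first had a fold of 6.80 in E47-ER at 4 h and of 9.76 and 11.8 in GFP at 4 h and 16 h, and the second, with a fold of 7.82, was in no other list. In GFP, 3 regions were new at 16 h and none was lost. These lay at 66.6 kb (fold 10.8), 89.3 kb (fold 6.31) and 199.1 kb (fold 5.19). Few regions anywhere went the other way, 4.93% of all regions with E47-ER and 5.29% with GFP. Over all regions, 19.7% were called with E47-ER at 4 h and not at 16 h, and 20.5% in GFP at 16 h and not at 4 h, against 14.3% and 21.4% at Tox, which are near or below those shares.

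List length enters these counts, because the GFP list was the longer at 16 h and the E47-ER list the longer at 4 h. Taking 4 h by itself, 5 Tox regions were called with GFP and not with E47-ER (background 8.37%) and 2 the other way (19.5%), although the GFP list was then the shorter. Taking 16 h by itself, 9 were called with GFP and not with E47-ER (26.4%) and 1 the other way (7.48%). When every list was limited to its 40649 strongest regions, Tox held 12 regions, of which E47-ER at 4 h and 16 h called 5 and 4 and GFP called 9 and 9. Of all regions at this length, the lists called 77.0%, 75.9%, 76.9% and 76.6% in the order E47-ER at 4 h and 16 h and GFP at 4 h and 16 h, and 5.01% were GFP-only. Tox again had 5 GFP-only regions, of which 4 were the same: the region at 60.8 kb lost its call in GFP at 16 h, and the one at 50.7 kb lost its call in E47-ER at 4 h and so became GFP-only. Among regions above the median of each list that called them, 2 of the 14 were left, the GFP-only region at 27.8 kb and the region past the far end, which was in all lists.

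**Figure D2:**
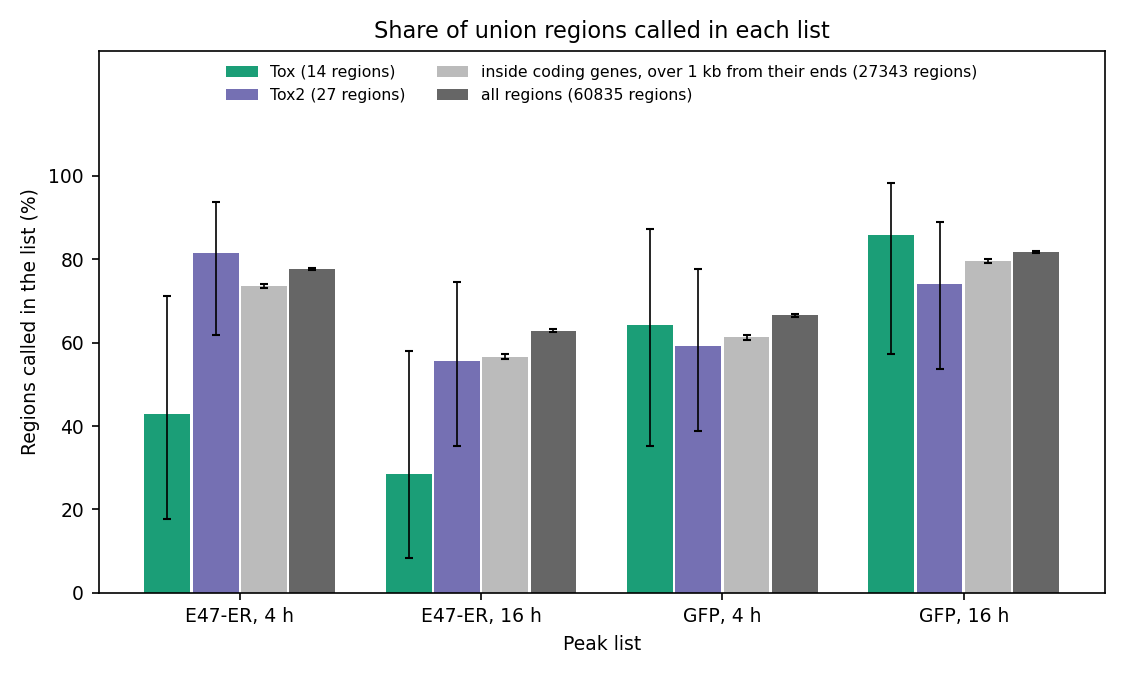
Share of regions called in each list for Tox, Tox2, regions inside coding genes away from their ends, and all regions. The y axis is the percent of the regions of each set, and error bars are exact 95% binomial intervals for counting error. The error bars give no test, since Tox and Tox2 were picked with their calls known. Tox is at 28.6% in E47-ER at 16 h against 62.9% of all regions, whereas Tox2 is at 55.6%.

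Tox2 (chromosome 2, 163203058 to 163324172, mm10) spans 121 kb on the plus strand and had 27 regions, 14 inside the gene. Its surroundings hold other genes: the lncRNA gene Gm11454 before the start, and Jph2, a gene for a junctional membrane protein, and Oser1, an oxidative stress response gene, past the far end. Only 16 of the 27 regions had Tox2 as their nearest coding gene.

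Tox2 had no like gap between the vectors. E47-ER at 4 h called 22 of 27 regions (81.5%), E47-ER at 16 h 15 (55.6%), GFP at 4 h 16 (59.3%) and GFP at 16 h 20 (74.1%). The lists called 77.7%, 62.9%, 66.5% and 81.8% of all regions in the same order. Regions in all 4 lists numbered 12 (44.4%, background 48.8%), those in both E47-ER lists only 2 (7.41%, background 3.43%), and those in both GFP lists only 1 (3.70%, background 4.56%). The other 12 were 4 in E47-ER at 4 h alone (background 7.21%), 3 in GFP at 16 h alone (10.6%), 3 in every list but E47-ER at 16 h (6.67%), 1 in E47-ER at 16 h alone (2.28%) and 1 in E47-ER at 4 h with GFP at 16 h (4.57%). The difference between Tox and Tox2 was not tested.

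The start region of Tox2 (163202643 to 163204302) was strong and alike in all lists. Its fold was 15.0 and 15.2 in E47-ER at 4 h and 16 h and 15.1 and 15.0 in GFP, at percentiles of 91.4 to 94.4. A second strong region 26.2 kb into the gene (163229078 to 163229575) had folds of 15.3 and 15.4 in E47-ER and 17.3 and 16.2 in GFP. The Oser1 end (163418842 to 163419899), at percentile 99.2 or above in each list, had folds between 18.9 and 20.5. These 3 places, the strongest by −log10 p, did not separate the vectors. By fold, the region 36.5 kb before the start stood above the start and 26.2 kb regions in GFP at 16 h. Its fold was 15.1 and 17.2 in GFP at 4 h and 16 h, and 13.6 and 12.5 in E47-ER.

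A region in Gm11454, 72.0 kb before the start of Tox2 (163130609 to 163131544), differed most between the vectors among the regions called in all lists. Its fold was 14.8 and 13.1 in E47-ER at 4 h and 16 h against 7.31 and 8.30 in GFP. E47-ER was 2.03 times GFP at 4 h and 1.57 times at 16 h, and the percentiles were 68.3 and 60.4 against 19.1 and 33.6. Among all 29667 regions called in the 4 lists, 146 (0.492%) were at least 1.5 times higher with E47-ER at both times and 125 (0.421%) were at least 1.5 times higher with GFP. It was the only 1 of the 15 Tox and Tox2 regions in all lists to pass 1.5 times at both times.

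Next to it, 70.6 kb before the start (163132183 to 163132704), lay the one region called in both GFP lists only, with folds of 6.00 at 4 h and 7.73 at 16 h. The E47-ER lines of the neighbouring region were 960 bp and 962 bp from its summit. In E47-ER lists the stretch thus had 1 called region with a high fold, and in GFP lists 2 with lower folds.

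The 2 regions called in both E47-ER lists only were on either side of the Tox2 start. The one 38.3 kb before it (163164277 to 163164869) had folds of 5.77 and 5.82 and percentiles of 50.8 and 44.9, and ranked 189 of 2088. It stood beside a stronger region at 36.5 kb before the start that all lists called, with folds of 13.6 and 12.5 in E47-ER and 15.1 and 17.2 in GFP. The one 89.3 kb into the gene (163292243 to 163292552) had folds of 7.46 and 8.33. A GFP line at 16 h lay 1343 bp from it, and the nearest GFP line at 4 h was 37515 bp away.

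**Figure D3:**
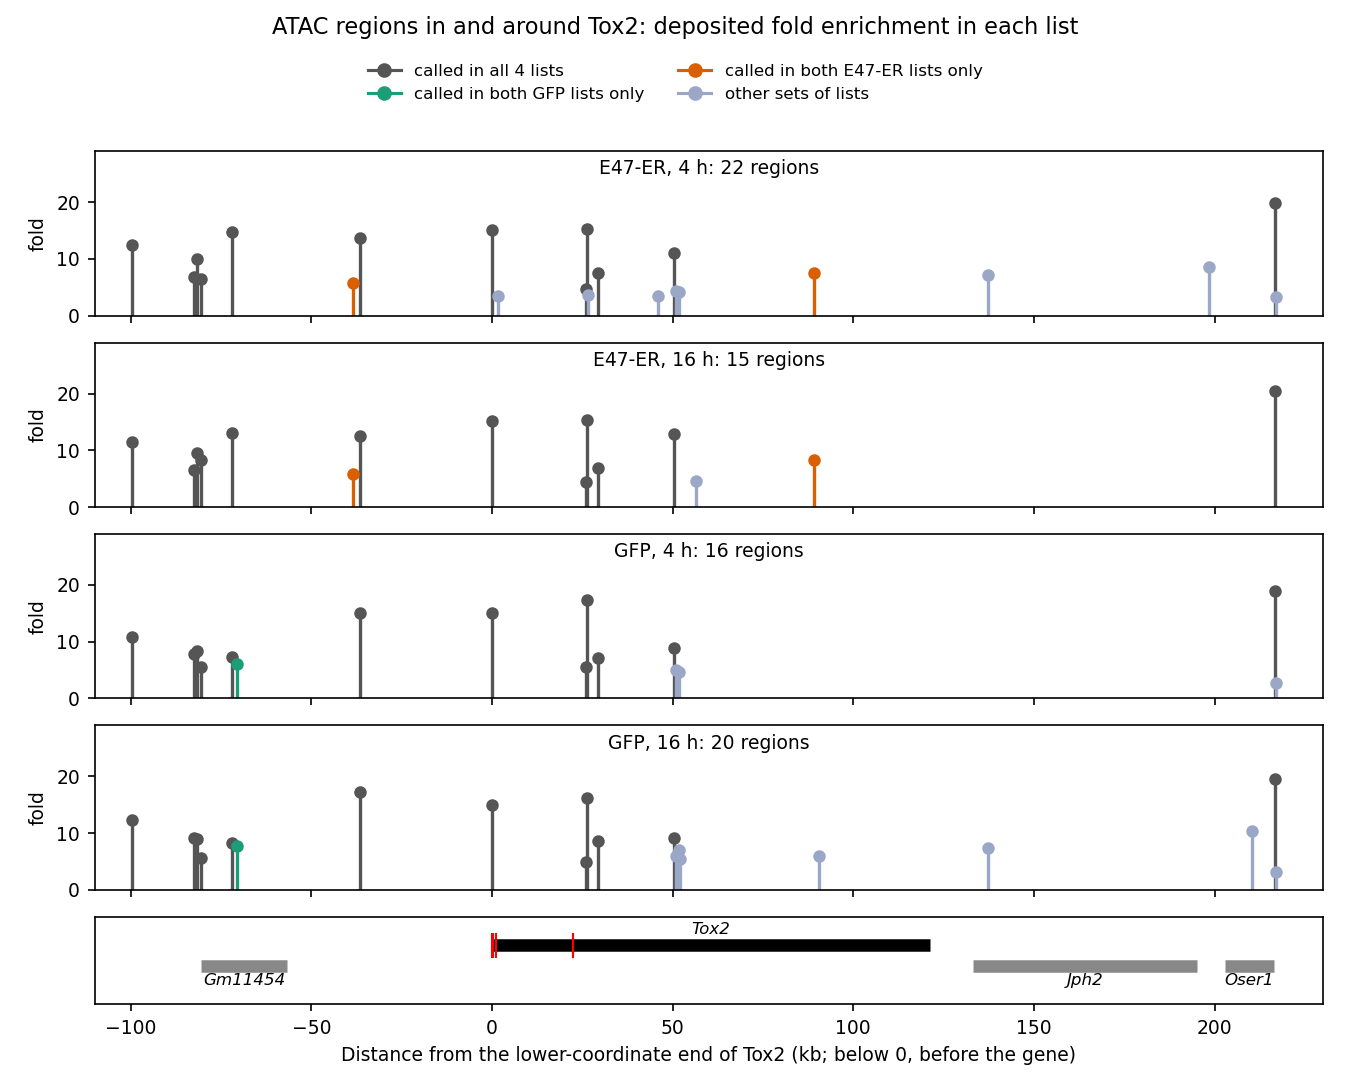
Regions in and around Tox2 in each list. The x axis is the distance in kb from the lower-coordinate end of the gene, the y axis is the deposited fold enrichment, each stem is 1 region, colours give the set of lists, and red ticks mark the annotated starts. The stem at 72.0 kb before the gene reaches 14.8 and 13.1 with E47-ER and 7.31 and 8.30 with GFP.

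Inside Tox2, the lists differed in regions of low fold. E47-ER at 4 h alone called regions at 1.7 kb, 26.7 kb and 46.0 kb into the gene, with folds of 3.49, 3.60 and 3.40. Every list but E47-ER at 16 h called regions at 50.8 kb, where the fold was 4.38 in E47-ER at 4 h and 5.09 and 6.03 in GFP, and at 51.7 kb, where it was 4.20, 4.75 and 6.99. By −log10 p the region at 51.7 kb stood above the median of GFP at 16 h, at percentile 57.5. The region at 50.4 kb beside them (163253017 to 163253778) was in all lists, with folds of 11.1 and 12.8 in E47-ER and 8.96 and 9.18 in GFP. GFP at 16 h alone called regions at 52.0 kb and 90.6 kb, and E47-ER at 16 h alone called 1 at 56.4 kb, at percentile 2.82. The remaining region inside the gene at 29.3 kb was in all lists, with folds between 6.97 and 8.56, as was a small one at 25.9 kb with folds between 4.47 and 5.59.

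The group of 4 regions that lies 80.5 to 99.7 kb before the Tox2 start was called in full by each list. The region at 99.7 kb had folds of 12.5 and 11.4 in E47-ER and 10.8 and 12.3 in GFP. The one at 80.5 kb had 6.40 and 8.26 in E47-ER and 5.53 and 5.54 in GFP, and E47-ER was 1.16 and 1.49 times GFP. The one at 82.4 kb went the other way, with 6.87 and 6.62 against 7.76 and 9.19. The outermost region is just inside the 100 kb limit, and the first region outside it, at 100815 bp, was called in both E47-ER lists only with folds of 5.27 and 4.89. On the other side, the last region inside the limit lay 95828 bp past the gene and the first outside it 142783 bp away, called in both GFP lists only with folds of 8.84 and 9.16.

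Over time at Tox2, E47-ER called 8 regions at 4 h and not at 16 h (29.6%, background 19.7%) and 1 the other way. GFP called 4 at 16 h and not at 4 h (14.8%, background 20.5%) and none the other way. By time, the E47-ER list had 7 Tox2 regions of its own at 4 h and the GFP list 1, and at 16 h they had 3 and 8. These are 25.9% and 3.70% of the Tox2 regions at 4 h, against 19.5% and 8.37% of all regions, and 11.1% and 29.6% at 16 h, against 7.48% and 26.4%. The longer list had more regions of its own at each time. At equal list length, E47-ER held 21 and 15 of 25 regions and GFP 16 and 18, where the lists called 77.0%, 75.9%, 76.9% and 76.6% of all regions.

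In the 15 regions of all 4 lists, the fold was compared with the difference over all such regions, since the lists differ in scale. That difference, E47-ER minus GFP on the log2 scale, had a median of 0.10 at 4 h (middle 50% from -0.03 to 0.25) and of -0.09 at 16 h (-0.30 to 0.06). The 3 Tox regions had a median of 0.00 at 4 h and 0.03 at 16 h, and none was higher or lower with E47-ER at both times. With the median fold of a region's lines in place of the highest, the Tox medians were 0.36 and 1.06, so the values depend on how a region is summarised. At 16 h these 3 regions had 1 line each in E47-ER and 9, 3 and 3 lines in GFP. The median thus rests on unequal numbers of lines, and no value over all regions is given for it. The 12 Tox2 regions had medians of 0.08 and -0.03, which became -0.29 and 0.04 with the median of lines and turned sign in percentile points, to -1.20 and 3.88. Of these, 5 were higher with E47-ER at both times and 4 lower, against 27.4% and 22.5% of all regions in the 4 lists. For the Tox start the difference was -0.22 and 0.03, and for the Tox2 start -0.01 and 0.02, so neither start region moved in 1 direction.

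**Figure D4:**
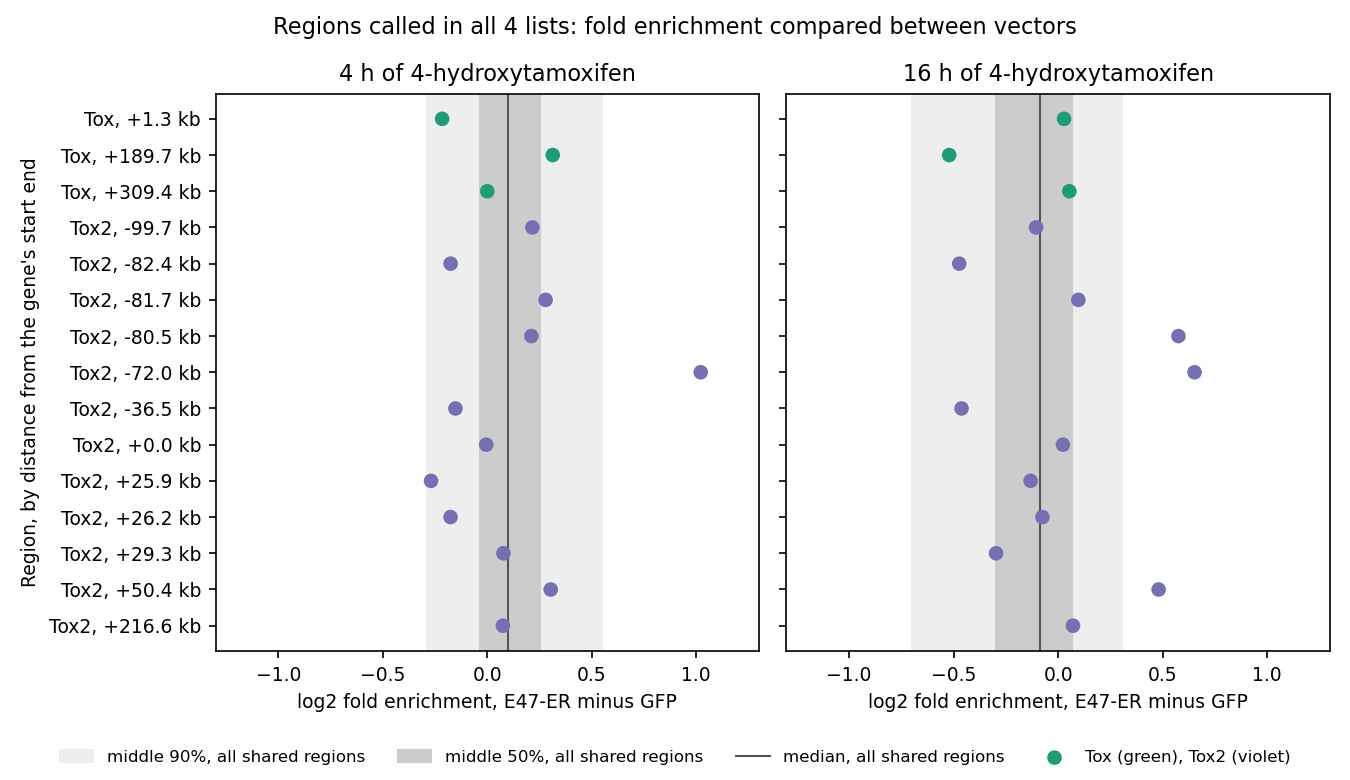
Difference in log2 fold enrichment, E47-ER minus GFP, at 4 h and 16 h for the 15 regions called in all lists. Each point is 1 region of Tox (green) or Tox2 (violet), named by its distance from the start end of the gene, and grey bands hold the middle 50% and 90% of all 29667 such regions. The Tox2 region at 72.0 kb before the start stands outside the bands at 1.02 and 0.65.

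Among coding genes with 10 or more regions inside, 632 in all, Tox had the highest share of regions called in both GFP lists only, 5 of 13 (38.5%). The next was Dgki with 4 of 11 (36.4%), then Dip2c and Erc1 with 3 of 10 each (30.0%). The median gene had 1.28% and the 95th percentile was 18.2%. For regions in all 4 lists, Tox had 15.4%, with 619 genes above it and a median of 43.8%. Tox2 held no GFP-only region among 14 inside the gene and 1 E47-only region. The place of Tox in this order follows from the calls for which it was picked, and it rests on 13 regions.

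**Figure D5:**
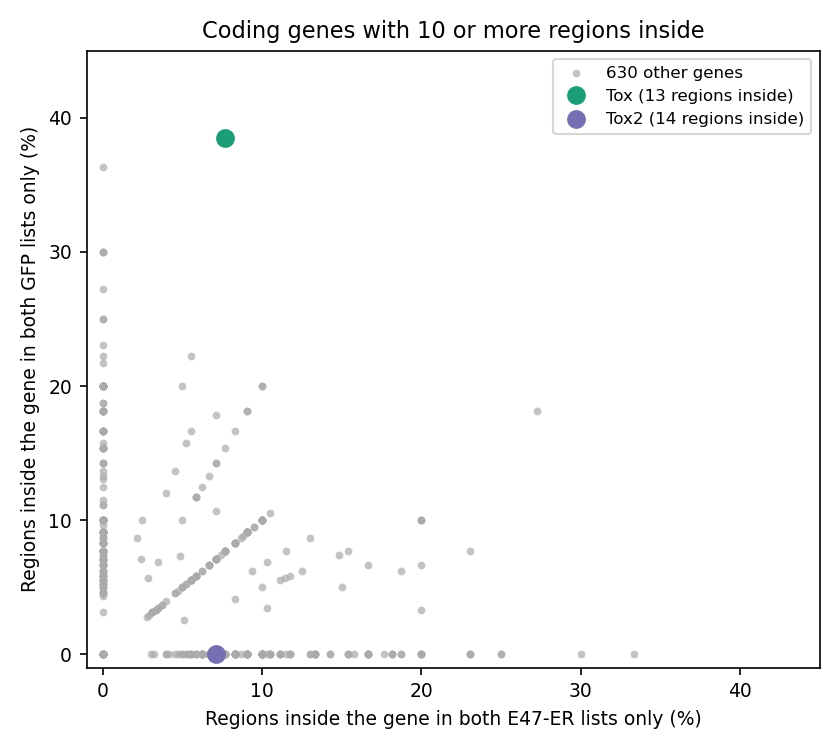
Share of regions inside each gene called in both GFP lists only (y axis, percent) against the share called in both E47-ER lists only (x axis, percent), for 632 coding genes with 10 or more regions inside. Each grey point is a gene. Tox is at 38.5% and 7.69%, and Tox2 at 0% and 7.14%.

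Genes whose calls were most like those of Tox were found by the distance between the 4 shares of regions called inside the gene, 1 per list. They were Gas2, Erc1, Fhit, Dusp16 and Cald1, at distances of 14.3 to 16.6 percentage points. Dusp16, a MAP kinase phosphatase gene, had 13 regions inside, of which E47-ER called 7 and 3 and GFP 8 and 11, while Tox had 5 and 3 against 8 and 11. Erc1, a scaffold protein gene, had 3 of 10 called in both GFP lists only, and Fhit had 4 of 18. By count, Bbs9 and Nedd4l had as many GFP-only regions as Tox, 5 of 23 and 5 of 28. For Tox2, among genes with 5 or more regions, the nearest were Cd200r1, Mcph1, Myl4 and Vps37b, each with 6 regions and 5.32 points away, and Mllt10 at 7.23 points. The measure rests on 4 lists, and the list lengths are part of every pattern.

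Of the other TOX family genes, Tox3 had no region inside it or within 100 kb, and Tox4, the widely expressed member, had 1 region inside, called in all lists. A list of 24 genes known to act with or before TOX in T cells and innate lymphoid precursors held 245 regions inside genes, 12 called in both GFP lists only (4.90%) and 11 in both E47-ER lists only (4.49%). Of the 23 of these genes with a region inside, 8 had a GFP-only region and 6 an E47-only region. Over all 12018 coding genes with a region inside, 11.1% and 8.8% had one. A gene with more regions has more chances to hold one. The genes were not matched for number of regions, so these counts show no excess. None had more than 2 GFP-only regions. Those with 2 were Nfatc2, the NFAT1 gene, Bcl11b, a T cell and ILC2 factor gene, Runx1, and Tcf12, the gene for the E protein HEB. Inside these genes, Nfatc2 also had 2 E47-only regions and Bcl11b 1, while Runx1 and Tcf12 had none. The list's shares of regions were near those of regions inside coding genes (5.46% and 4.05%).

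Nr4a1, Nr4a2 and Nr4a3, nuclear receptor genes induced by antigen receptor signals, had 3 or 4 regions inside each and none of either kind. Nfil3, an early innate lymphoid regulator, and Gata3, Tcf7, Lef1 and Zbtb16, which act in precursor and ILC2 development, had 3 to 9 regions inside and none of either kind, and Id2 had no region inside at all. Within 100 kb, the window used for Tox and Tox2, Lef1 had 2 GFP-only of 26 regions, Nfil3 1 of 33 and Gata3 1 of 22. Tcf7 had 1 GFP-only and 2 E47-only of 18, Id2 1 E47-only of 16 and Nr4a1 2 E47-only of 26. The highest counts were 3 GFP-only at Nfatc1 (of 29) and Runx1 (of 37), and 4 E47-only at Rora (of 36) and Id3 (of 28). All 4 were mixed: Nfatc1 and Runx1 each also had 1 E47-only region, and Rora and Id3 each had 2 GFP-only regions. Within 100 kb, 13 of the 24 genes had a GFP-only region and 15 an E47-only region. The share of all coding genes with one in such a window is not given here, so these counts cannot be called high or low. As shares of regions, not of genes, 4.56% of all regions were GFP-only and 3.43% E47-only. Rora had 1 GFP-only and 3 E47-only regions of 29 inside, and Ikzf1, the Ikaros gene, had 0 and 3 of 23, while Runx1 had 2 and 0 of 26 and Tcf12 had 2 and 0 of 9. These are few calls, set against 5.46% and 4.05% of regions inside coding genes. The 5 GFP-only regions of Tox, between 27.8 and 199.3 kb into the gene, describe these 4 lists, and their spread over replicates is not known.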

How the data were processed

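Chromatin accessibility was measured by ATAC-seq in 8 samples, 2 in each of 4 groups taken from the sample titles. The tools named, per the submitters' processing notes, are DiffBind, MACS2, Bowtie2 and cutadapt, on build mm10, with versions and settings not given in the sources used here. The authors deposited 1 peak list for each group, a conservative irreproducible discovery rate (IDR) list per the labels. Its columns hold the authors' fold enrichment (a ratio), −log10 p, −log10 q (not used) and a deposited score from 540 to 1000.

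Lines of a list that overlapped were joined, and regions of different lists sharing 1 bp or more were counted as the same. Gene positions came from RefSeq (GRCm38.p6); start sites, which give strand, exist for Tox2. Percentiles rank regions by −log10 p within a list. No test was run, since each group has 1 list. The members and gene lists were chosen with earlier results of these data known, and so were the 1.5-fold limit and the position bins. Regions named were all those called by 1 vector at both times, the strongest of each list, those at gene ends, and those at the 100 kb limits; other regions were added after their values were seen. Genes named beside them were a list of 26 relatives and partners and, for Tox and for Tox2, the 5 genes with the nearest pattern; the genes with the highest GFP-only shares or counts (Dgki, Dip2c, Erc1, Bbs9, Nedd4l) were added after their values were seen. Other overlaps, gaps, list lengths, strengths and distances were tried. The joining code was tested on 20000 simulated regions and recovered the set of lists of all 20000. Software was matplotlib 3.10.9, scipy 1.17.1, numpy 2.4.6, pandas 2.3.3 and Python 3.11.15.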

Additional observations from a re-analysis of the deposited data

Results flagged for a closer look

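At Tox2 the balance of called regions had opposite signs at the 2 times. E47-ER called 6 more regions than GFP at 4 h, and at 16 h the difference was -5. No test of this change with time could be made, since each group has 1 list. The longer list had more regions at each time. At equal list length, E47-ER called 21 of 25 regions at 4 h and GFP 16, and at 16 h they called 15 and 18. The signs were thus still opposite, and the cause was not tested. A Tox2 window region inside Jph2, 137.3 kb from the Tox2 start (chromosome 2, 163340322 to 163340494), was called only in the 2 longest lists, with a fold of 7.24 in E47-ER at 4 h and 7.34 in GFP at 16 h. It was thus called with E47-ER and not GFP at 4 h and the reverse at 16 h. At equal list length this region was still called in the same lists and in no other. The cause was not tested.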

How the results depend on the processing

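No paired analysis was possible because each group is 1 list made from both samples, and for the same reason no replicate was left out. Of 100 alternative values, 67 stayed within 1.5 times of the value given or within its spread. Counts are of regions called by one vector at both times or by all 4 lists. With regions above the list medians, Tox had 1 GFP-only, 0 E47-only and 1 in all lists, and Tox2 0 and 0. With a score of 1000, Tox had 2, 0 and 1, and Tox2 0 GFP-only and 1 E47-only. In the gene body, Tox2 had 0, 1 and 5; within 50 kb, and by nearest coding gene, 0 GFP-only and 6 in all lists. Within 200 kb, Tox had 5 in all lists and Tox2 2 GFP-only. By single summits within 150 bp, Tox had 12 GFP-only, and Tox2 2 GFP-only, 4 E47-only and 42 in all lists. These are counts of summits, from 81 lines at Tox and 212 at Tox2, and a region can hold several. They cannot be set against the counts of regions, and no share over all summits is given. Leaving out a list was chosen after seeing the data: without E47-ER at 4 h, Tox2 had 4 GFP-only (12.1% of all regions were then GFP-only); without E47-ER at 16 h, Tox had 2 E47-only and Tox2 6 (10.9% of all regions); without GFP at 4 h, Tox had 8 GFP-only and Tox2 4 (15.5% of all regions). With the median fold of a region's lines, the log2 difference at Tox was 0.36 at 4 h and 1.06 at 16 h, and at Tox2 -0.29 at 4 h. The lists differ in lines per region, and no value over all regions is given for this median. In percentile points the Tox2 difference reversed, to -1.20 at 4 h and 3.88 at 16 h. The cause was not tested. GFP-only regions outnumbered E47-only ones at Tox in every alternative tried. All of these count again the calls for which Tox was picked, so they are no independent support. Above the list medians the count was 1 against 0 of 2 regions. Read depth, which limits calling, is not known.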
